A study of Homo sapiens with 6 samples.

Results

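The genes described here encode the ephrins and their Eph receptors, and the semaphorins with their plexin and neuropilin receptors, in human cardiomyocytes exposed to alcohol. They were chosen by name, as all genes in the deposited expression table whose symbol is that of an ephrin (EFNA or EFNB), an Eph receptor (EPHA or EPHB), a semaphorin of classes 3 to 7, a plexin (PLXNA to PLXND) or a neuropilin (NRP1 or NRP2). This gave 53 of 21134 genes: 8 ephrins, 14 Eph receptors, 20 semaphorins, 9 plexins and 2 neuropilins. EFNB3, SEMA3C and NRP2 were taken as the leading genes of the group, with earlier results of these data known.

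RNA was sequenced from 6 libraries of cardiomyocytes derived from H9 (hiPSC-CMs in the naming of the study). H9 is an established line of human embryonic stem cells, so all libraries share 1 genetic background. The control group had no treatment (2 libraries), the alcohol group had 100 mM alcohol for 24 h (2 libraries), and the co-treated group had 100 mM alcohol together with 1 μM losartan, a blocker of the angiotensin II type 1 receptor, for 24 h (2 libraries). No group had losartan alone and none is described as a vehicle control, so the effect of losartan without alcohol was not measured. The labels do not say whether the 2 libraries of a group came from separate cultures, and p-values then measure the spread between these libraries, which may be technical. Cardiomyocyte markers were abundant in every library, with the FPKM of 12 such genes summing to between 18168 and 25528, while 6 pluripotency markers summed to between 14.5 and 23.0. Library totals were 4898287 to 5051448 expected counts, and the 53 genes together took 0.208 to 0.253% of them.

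Ephrins are ligands held on the cell surface, the A class by a lipid anchor and the B class by a transmembrane segment, and they bind Eph receptor tyrosine kinases on neighbouring cells, with signals passing in both directions. Semaphorins are secreted (class 3) or membrane-bound ligands that signal through plexins, and most class 3 members need a neuropilin as co-receptor, which neuropilins also provide for VEGF. Both systems steer migrating cells and axons, and in the developing heart they act on the outflow tract, the vessels and the valves, with SEMA3C known for its part in outflow tract septation.

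Levels per gene length are given as FPKM, in which the authors scaled the fragments of a gene to its transcript length and to the size of the library. By the mean over the 6 libraries, 18 of the 53 genes were at 10 FPKM or more, 25 were between 1 and 10 FPKM, and 10 were below 1 FPKM. All but 3 (EPHA1, EPHA5 and EPHA6) were above 0 in each library. EFNB3 had the highest mean (47.4 FPKM), followed by NRP2 (27.9 FPKM), PLXNB2 (23.8 FPKM), NRP1 (21.9 FPKM), PLXNA1 (19.0 FPKM) and EPHB3 (19.0 FPKM). EPHA5 had the lowest mean (0.05 FPKM). A test needs enough counts, and 47 of the 53 genes passed that filter, against 14926 of all 21134. The 6 genes not tested were EPHA1, EPHA5, EPHA6, EPHA8, EPHB1 and SEMA3E, with at most 1.07 FPKM in any library (EPHA6 in control replicate 1).

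**Figure D1:**
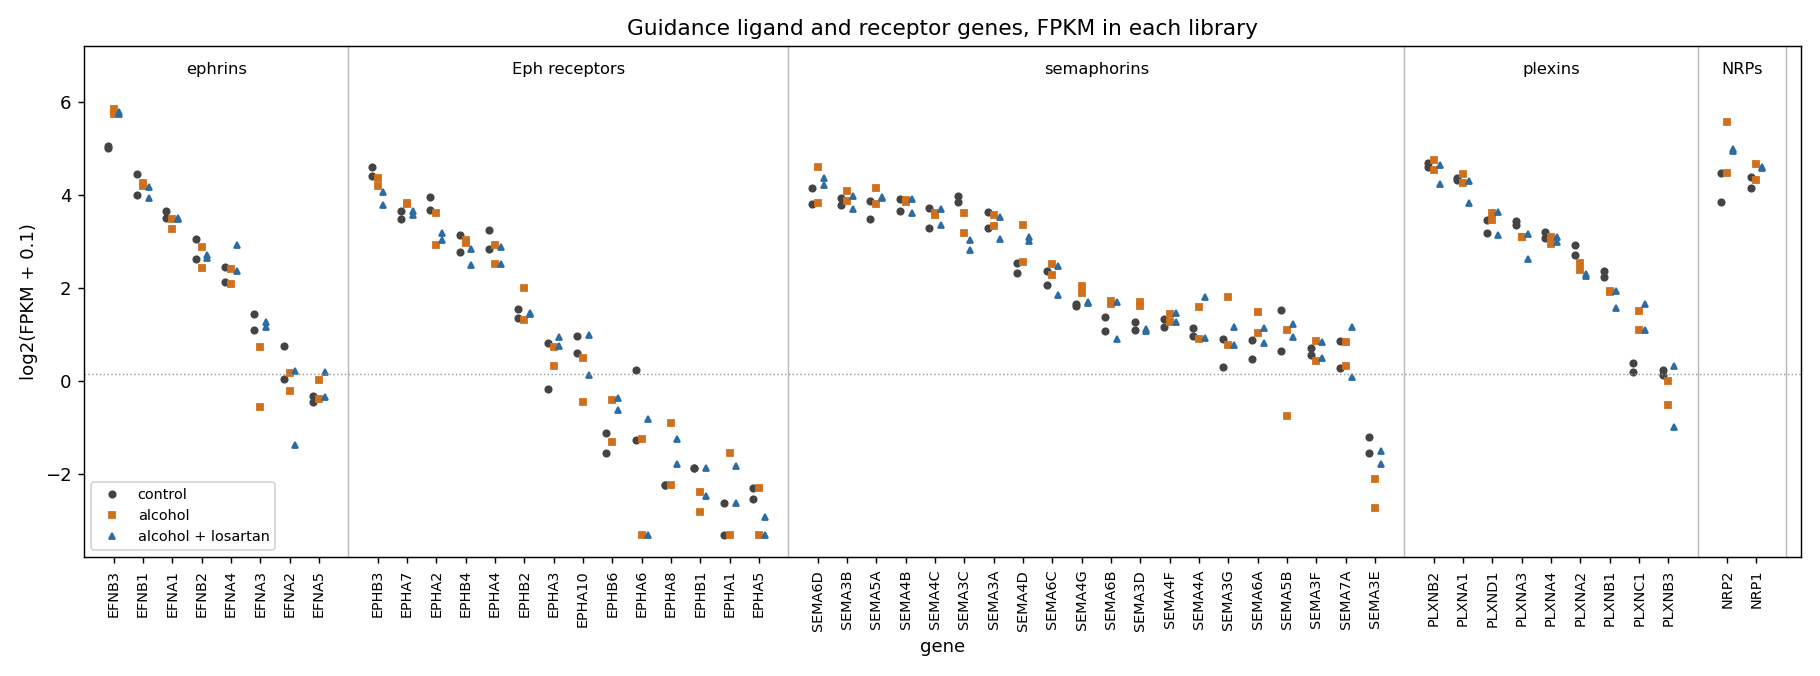
Level of each of the 53 genes in each library as log2(FPKM + 0.1), with genes ordered by mean level within their family and the dotted line at 1 FPKM. Circles are control, squares alcohol and triangles alcohol with losartan libraries; EFNB3 stands highest and EPHA5 lowest.

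EFNB3, the transmembrane ligand ephrin-B3, rose with exposure. Its FPKM was 32.0 and 33.1 in the control libraries, 53.4 and 57.7 in the alcohol libraries and 53.3 and 55.0 in the co-treated libraries. Every exposed library was thus well above both controls, and the alcohol and co-treated libraries covered the same range. EFNB3 rose in alcohol against control (log2 fold change 0.73, SE 0.11, edgeR quasi-likelihood test with Benjamini-Hochberg adjustment over all genes tested, adjusted p = 0.0354), which is 1.66-fold. It rose 1.61-fold in co-treated against control (log2 fold change 0.69, SE 0.11, adjusted p = 0.0240). With the alcohol and co-treated groups averaged, here called exposed, the log2 fold change against control was 0.71 (SE 0.10, adjusted p = 0.0113). Between co-treated and alcohol the log2 difference of EFNB3 was −0.04, with a 95% interval of −0.28 to 0.19 (adjusted p = 0.978). The size of the EFNB3 change was steady and its adjusted p was not: without control replicate 1, control replicate 2, alcohol replicate 2, co-treated replicate 1 or co-treated replicate 2 the alcohol contrast gave adjusted p = 0.0738, 0.137, 0.227, 0.110 and 0.109 at log2 fold changes of 0.72 to 0.76. The co-treated contrast gave 0.123, 0.134, 0.107 and 0.293 without control replicate 1, control replicate 2, co-treated replicate 1 and co-treated replicate 2, and the exposed contrast gave 0.0581, 0.0877, 0.0573 and 0.0856 without the same 4 libraries. The alcohol call was also lost with no filter on low counts, with only the groups compared in the fit, and with limma on log2(FPKM + 1) and log2(FPKM + 0.1) (adjusted p = 0.0693, 0.1205, 0.125 and 0.103). The co-treated call was lost with no filter and with both limma fits (adjusted p = 0.0530, 0.0995 and 0.0887), and the exposed call with both limma fits (0.0543 and 0.0524).

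The other ephrins showed no call in any comparison. EFNB1, the next ephrin by level, had 15.7 and 21.6 FPKM in control, 18.2 and 18.9 under alcohol, and 17.9 and 15.2 in co-treated libraries, so the groups overlapped. EFNA1, the most abundant of the lipid-anchored A class, had 11.1 and 12.5 FPKM in control, 11.0 and 9.45 under alcohol, and 11.2 and 11.0 in co-treated libraries. EFNB2, known as the ephrin of arteries, lay between 5.29 and 8.12 FPKM in all libraries. EFNA3 had the most negative estimate of the 47 tested genes in alcohol against control, going from 2.01 and 2.58 FPKM in control to 1.56 and 0.57 in alcohol, with 2.30 and 2.13 in co-treated libraries, but the error was wide (log2 fold change −1.12, SE 0.52, adjusted p = 0.452). EFNA4 had 7.46 FPKM in co-treated replicate 1 and between 4.11 and 5.34 in the other 5 libraries. It overlaps a noncoding gene (DCST1-AS1, listed under an older name), which ran from 0.37 to 1.84 FPKM. EFNA2 had 1.57 and 0.93 FPKM in control, 1.02 and 0.76 under alcohol, and 1.05 and 0.28 in co-treated libraries. EFNA5 lay between 0.63 and 1.03 FPKM.

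Among the Eph receptors, which are receptor tyrosine kinases, no gene passed the adjusted threshold in the edgeR test, and those that came closest were lower in exposed cells. EPHB3, a receptor for B-class ephrins and the most abundant Eph gene, had 24.2 and 21.1 FPKM in control, 18.2 and 20.4 under alcohol, and 16.5 and 13.6 in co-treated libraries. All 4 exposed libraries lay below both controls, with the co-treated lowest. Its log2 fold change in co-treated against control was −0.64 (SE 0.14), with adjusted p = 0.0704 in edgeR and 0.0428 in DESeq2, and leaving out alcohol replicate 1 gave 0.0484 in edgeR. EPHA2, a receptor for A-class ephrins, had 15.3 and 12.7 FPKM in control, 12.01 and 7.45 under alcohol, and 8.94 and 8.02 in co-treated libraries, again without overlap. Its log2 fold change in exposed against control was −0.67 (SE 0.18, adjusted p = 0.111). Without alcohol replicate 1 that adjusted p was 0.00684, at a log2 fold change of −0.88. EPHA4 had 7.02 and 9.35 FPKM in control, 5.62 and 7.41 under alcohol, and 5.61 and 7.23 in co-treated libraries, and overlapped between groups by FPKM. By the normalised counts of the edgeR fit, every exposed library lay below both controls. Its log2 fold change in exposed against control was −0.38 (SE 0.15, adjusted p = 0.296).

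Of the 6 remaining tested receptors, 4 had positive log2 fold changes in exposed against control (EPHA3, EPHA7, EPHB2 and EPHB6) and 2 had negative ones (EPHA10 and EPHB4), none at an unadjusted p under 0.05. EPHA7, the most abundant EphA gene, had 12.5 and 11.1 FPKM in control, 14.1 and 13.9 under alcohol, and 11.8 and 12.4 in co-treated libraries. EPHB4, the venous partner of EFNB2, had 6.75 and 8.71 FPKM in control, 8.05 and 7.69 under alcohol, and 7.05 and 5.51 in co-treated libraries (exposed against control log2 fold change −0.18, SE 0.15). EPHB4 overlaps SLC12A9 in the annotation, and since the files do not say whether counting used the strand, reads of the 2 genes may not be separable. SLC12A9 had 9.15 and 9.01 FPKM in control, 8.23 and 6.42 under alcohol, and 6.3 and 4.28 in co-treated libraries. Its part in the EPHB4 values was not tested. EPHA3 had 1.66 and 0.78 FPKM in control, 1.15 and 1.56 under alcohol, and 1.81 and 1.58 in co-treated libraries. EPHB6, whose kinase domain is inactive, had 0.36 and 0.24 FPKM in control, 0.30 and 0.65 under alcohol, and 0.54 and 0.67 in co-treated libraries, and EPHA10 had 1.84 and 1.41, then 0.63 and 1.30, then 1.87 and 0.99 FPKM in the same order. Both had wide errors, with SEs of 0.57 and 0.44 on their exposed against control log2 fold changes of 0.71 and −0.41. EPHB2 lay between 2.36 and 3.88 FPKM. EPHA1, EPHA5, EPHA8 and EPHB1 stayed at or under 0.43 FPKM in every library, and EPHA6 ran from 0 to 1.07 FPKM.

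**Figure D2:**
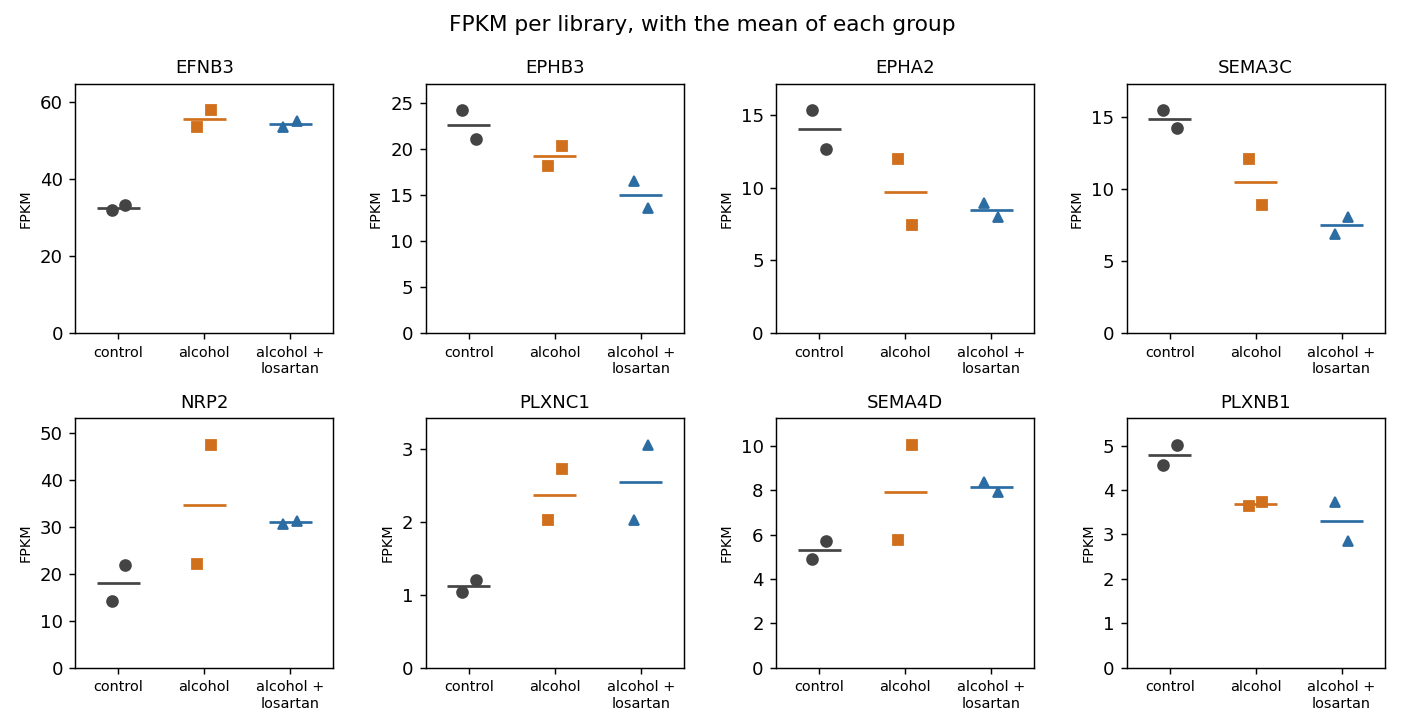
FPKM of 8 genes in each library, each axis starting at 0, with points for the 2 libraries of a group and a bar at their mean. EFNB3 is 32.0 to 33.1 in control and 53.3 to 57.7 in exposed libraries, and SEMA3C is 14.3 to 15.5 in control and 6.90 to 12.1 in exposed libraries.

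Set side by side within a library, ligand exceeded receptor by a wider margin after exposure. The FPKM of the 8 ephrins summed to 76.6 and 81.6 in control, 98.2 and 97.8 under alcohol, and 100.3 and 95.7 in co-treated libraries. The 14 Eph receptors summed to 73.5 and 68.9 in control, 63.0 and 64.9 under alcohol, and 57.3 and 53.5 in co-treated libraries. The ratio of ephrin to Eph FPKM was therefore 1.04 and 1.18 in control, 1.56 and 1.51 under alcohol, and 1.75 and 1.79 in co-treated libraries. EFNB3 made up 41.2% ± 0.818 (SD, n = 2) of ephrin FPKM in control, 56.7% ± 3.30 under alcohol and 55.3% ± 3.01 in co-treated libraries. With EFNB3 left out the ratio was 0.607 and 0.703 in control, 0.711 and 0.617 under alcohol, and 0.820 and 0.761 in co-treated libraries, so control and alcohol then overlapped. EFNB3 to EPHB3 alone went from 1.32 and 1.57 in control to 2.93 and 2.83 in alcohol and 3.23 and 4.04 in co-treated libraries. No test was run on these sums, since the genes in them were known to differ.

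**Figure D3:**
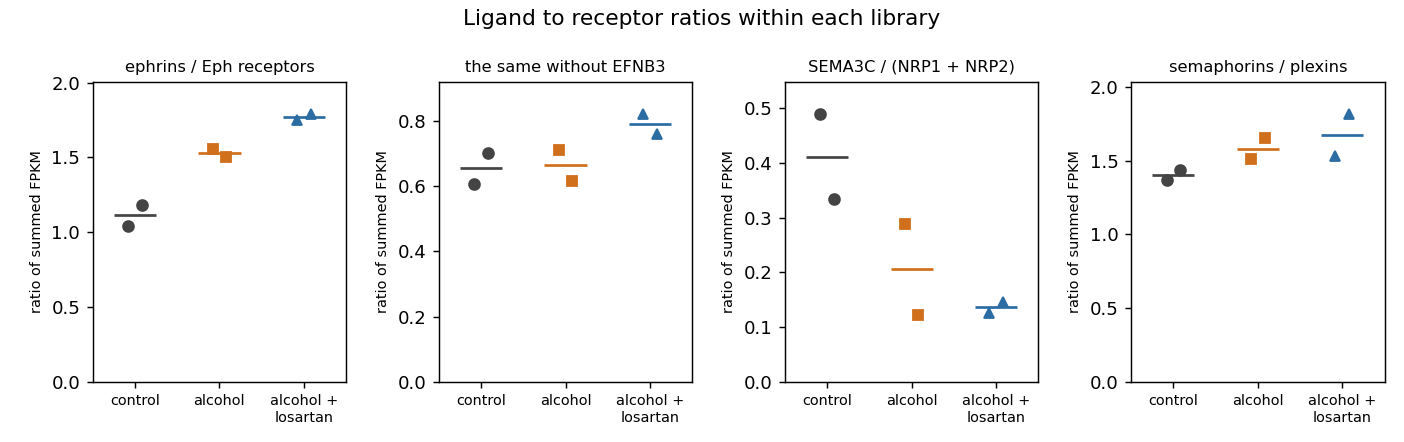
Ratios of summed FPKM in each library, with points for libraries and bars for group means, on axes from 0. The ephrin to Eph receptor ratio is 1.04 and 1.18 in control and at least 1.51 in exposed libraries, while without EFNB3 the control and alcohol libraries overlap.

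SEMA3C, a secreted semaphorin, moved the other way. Its FPKM was 15.5 and 14.3 in control, 12.1 and 8.88 under alcohol, and 6.90 and 8.06 in co-treated libraries. The 3 groups did not overlap, with control highest and co-treated lowest. SEMA3C fell in co-treated against control (log2 fold change −1.04, SE 0.17, adjusted p = 0.0276), a 2.05-fold drop, and in exposed against control (log2 fold change −0.79, SE 0.14, adjusted p = 0.0352). In alcohol against control the log2 fold change was −0.54 (SE 0.17, adjusted p = 0.253), and between co-treated and alcohol it was −0.50 (95% interval −0.88 to −0.12, adjusted p = 0.842). The co-treated call was lost without control replicate 1, co-treated replicate 1 or co-treated replicate 2 (adjusted p = 0.0869, 0.160 and 0.293), and the alcohol contrast passed without alcohol replicate 1 (log2 fold change −0.81, adjusted p = 0.0473). The exposed call was lost without control replicate 1, control replicate 2, alcohol replicate 2, co-treated replicate 1 or co-treated replicate 2 (adjusted p = 0.137, 0.106, 0.0569, 0.120 and 0.122). With no filter and with limma at pseudocounts of 1 and 0.1, both calls were lost (adjusted p = 0.0613, 0.125 and 0.135 in co-treated, and 0.0829, 0.134 and 0.133 in exposed against control).

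NRP2, a neuropilin that SEMA3C and SEMA3F bind, was above both controls in every exposed library, but the size varied with the library left out. Its FPKM was 14.2 and 22.0 in control, 22.1 and 47.4 under alcohol, and 30.7 and 31.3 in co-treated libraries. Control replicate 2 and alcohol replicate 1 were nearly level, and alcohol replicate 2 stood far above the rest. The log2 fold change in alcohol against control was 0.83 (SE 0.25, adjusted p = 0.223). It was 0.27 (adjusted p = 0.950) without alcohol replicate 2, and 1.25 (adjusted p = 0.00345) without alcohol replicate 1. The controls weighed on it too, since it was 0.59 (adjusted p = 0.627) without control replicate 1 and 1.15 (adjusted p = 0.197) without control replicate 2. In co-treated against control it was 0.69 (SE 0.25, adjusted p = 0.264), with 0.44 (adjusted p = 0.680) and 0.99 (adjusted p = 0.195) without the same control libraries, and without alcohol replicate 1 the adjusted p was 0.0489. For exposed against control it was 0.76 (SE 0.22, adjusted p = 0.133), and it ranged from 0.48 (without alcohol replicate 2, adjusted p = 0.247) to 1.07 (without control replicate 2, adjusted p = 0.127), with 0.97 (adjusted p = 0.00291) without alcohol replicate 1. NRP1, the other neuropilin, was tighter, with 17.4 and 20.7 FPKM in control, 19.9 and 25.2 under alcohol, and 24.2 and 23.7 in co-treated libraries (exposed against control log2 fold change 0.20, SE 0.11, adjusted p = 0.468). The ratio of SEMA3C to the FPKM of both neuropilins was 0.489 and 0.334 in control, 0.288 and 0.122 under alcohol, and 0.126 and 0.147 in co-treated libraries.

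The promoters of 2 leading genes are shown because SEMA3C and NRP2, a neuropilin that it binds, lay in opposite directions. RefSeq on GRCh38.p14 gives 2 start sites for SEMA3C, 3338 bases apart, and 1 for NRP2. The 250 bases before each start are printed 5′ to 3′ on the strand of the gene, with each GC box (searched as GGGCGG on both strands) in capitals. They lie at chr7:80922390-80922639 (minus strand, the outer start of SEMA3C), chr7:80919052-80919301 (minus strand, the inner start of SEMA3C) and chr2:205682251-205682500 (plus strand, NRP2).
SEMA3C outer start: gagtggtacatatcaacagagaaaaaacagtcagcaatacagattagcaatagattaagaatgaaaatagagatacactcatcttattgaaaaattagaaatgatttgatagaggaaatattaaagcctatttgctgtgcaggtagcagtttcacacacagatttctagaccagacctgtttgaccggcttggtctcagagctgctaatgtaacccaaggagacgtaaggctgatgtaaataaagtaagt
SEMA3C inner start: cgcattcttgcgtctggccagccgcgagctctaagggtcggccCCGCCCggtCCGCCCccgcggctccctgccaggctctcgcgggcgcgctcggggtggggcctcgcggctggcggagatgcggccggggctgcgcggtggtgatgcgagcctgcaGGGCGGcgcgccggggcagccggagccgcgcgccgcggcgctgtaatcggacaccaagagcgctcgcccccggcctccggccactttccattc
NRP2: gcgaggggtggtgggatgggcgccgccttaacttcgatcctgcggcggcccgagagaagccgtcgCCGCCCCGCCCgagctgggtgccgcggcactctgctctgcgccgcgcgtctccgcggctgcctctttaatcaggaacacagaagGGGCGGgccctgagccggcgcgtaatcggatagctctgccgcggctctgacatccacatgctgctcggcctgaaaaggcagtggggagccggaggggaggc
The outer SEMA3C window had a GC content of 36.4% and held no GC box, while the inner window had 77.6% with 3 GC boxes, and the NRP2 window had 70.0% with 3, of which a pair share a base. None of the 3 windows held, on either strand, the 3 other motifs searched. Over the 47 of the 53 genes with a promoter in that table (EFNB3, EPHA10, NRP1, SEMA3A, SEMA6A and SEMA6B had none), taking the outermost start of each gene, 80.9% of the windows held a GC box, against 42.2% of the windows of all 27305 genes, noncoding genes included. The share with CCAAT was 34.0% for these genes against 33.0% for all. For the letters TATAAA of the TATA box it was 2.1% for these genes against 11.2% for all. For CACGTG, an E box, it was 8.5% against 6.5%, with every motif searched on both strands and matches of different motifs free to overlap. These matches describe the letters and say nothing of which factor binds or which start was used.

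The other class 3 semaphorins, which are secreted, did not follow SEMA3C. SEMA3C, SEMA3E, SEMA3A and SEMA3D lie in this order on chromosome 7 between 80742538 and 85250243. SEMA3A had 9.61 and 12.2 FPKM in control, 9.92 and 11.7 under alcohol, and 8.13 and 11.4 in co-treated libraries. SEMA3D had 2.03 and 2.29 FPKM in control, 2.94 and 3.15 under alcohol, and 2.00 and 2.07 in co-treated libraries, so that the alcohol libraries stood apart from the other 4. Its log2 fold change was 0.46 (SE 0.20, adjusted p = 0.427) in alcohol against control and −0.59 (SE 0.20, adjusted p = 0.836) in co-treated against alcohol. SEMA3B, the most abundant of the class, had 15.0 and 13.6 FPKM in control, 16.8 and 14.5 under alcohol, and 15.6 and 12.8 in co-treated libraries. SEMA3F lay between 1.24 and 1.71 FPKM, SEMA3E between 0.05 and 0.33 FPKM, and SEMA3G reached 3.36 FPKM in alcohol replicate 2 against 1.13 to 2.11 in the other 5 libraries.

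Among the membrane-bound semaphorins, the 6 genes of class 4 and the 4 of class 6 all had positive fold changes in alcohol against control, with medians of 0.15 and 0.35 on the log2 scale and no call, where 49.4% of all genes tested were higher. In co-treated against control 4 of the 6 and 3 of the 4 were higher, with medians of 0.05 and 0.15, where 49.8% of all genes tested were higher. All 4 class 6 genes had negative differences in co-treated against alcohol (median −0.26), where 50.3% of all genes tested were higher. None of the 4 had an unadjusted p under 0.05 there in the edgeR test. This comparison shares the alcohol libraries, with opposite sign, with that of alcohol against control, so the 2 are not independent. SEMA4D, a ligand of PLXNB1, had 4.90 and 5.70 FPKM in control, 5.77 and 10.0 under alcohol, and 8.38 and 7.91 in co-treated libraries. Alcohol replicate 1 was level with control, and the other 3 exposed libraries were higher (exposed against control log2 fold change 0.56, SE 0.19, adjusted p = 0.205). SEMA4D overlaps SECISBP2 in the annotation. SEMA6A, a ligand of plexins A, had 1.27 and 1.72 FPKM in control, 1.92 and 2.70 under alcohol, and 2.09 and 1.64 in co-treated libraries. The most abundant genes of their classes were SEMA6D (13.8 and 17.7, then 14.1 and 23.9, then 18.5 and 20.4 FPKM), SEMA5A (11.1 and 14.4, then 13.9 and 17.6, then 15.4 and 15.2 FPKM) and SEMA4B (12.4 and 14.9, then 14.2 and 14.7, then 15.0 and 12.1 FPKM), each in the order control, alcohol, co-treated. SEMA5B was erratic, with 2.75 and 1.46 FPKM in control, 2.04 and 0.49 under alcohol, and 2.24 and 1.81 in co-treated libraries. SEMA7A, which is held by a lipid anchor, lay between 0.96 and 2.12 FPKM. SEMA4G had 3.05 and 2.94 FPKM in control, 3.60 and 4.02 under alcohol, and 3.08 and 3.13 in co-treated libraries, and overlaps MRPL43. Of the others, SEMA4C lay between 9.64 and 13.0 FPKM, SEMA6C between 3.47 and 5.57, SEMA4A between 1.76 and 3.39, SEMA6B between 1.75 and 3.17, and SEMA4F between 2.13 and 2.63.

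Plexins are the signalling receptors of semaphorins. The 4 plexin A and the 3 plexin B genes all had negative fold changes in alcohol and in co-treated against control. These comparisons share the control libraries, and 7550 and 7497 of all 14926 genes tested were lower in them. Medians on the log2 scale were −0.24 and −0.43 in alcohol and −0.42 and −0.46 in co-treated, against 0.00 over all genes tested. PLXNA1 and PLXNB2 were near no change in alcohol against control (log2 fold changes −0.02 and −0.05, SE 0.15 and 0.14). PLXNA2, a receptor used with neuropilins by class 3 semaphorins, had 7.44 and 6.41 FPKM in control, 5.14 and 5.70 under alcohol, and 4.81 and 4.68 in co-treated libraries, without overlap between control and exposed. Its log2 fold change in exposed against control was −0.50 (SE 0.11, adjusted p = 0.0646). PLXNB1, the receptor of SEMA4D, had 4.56 and 5.01 FPKM in control, 3.63 and 3.72 under alcohol, and 3.73 and 2.86 in co-treated libraries (log2 fold change −0.51, SE 0.14, adjusted p = 0.128). PLXNA3 had 10.7 and 10.1 FPKM in control, 8.43 and 8.38 under alcohol, and 8.74 and 6.07 in co-treated libraries (log2 fold change −0.44, SE 0.14, adjusted p = 0.163). It overlaps LAGE3, which ran from 13.9 to 19.8 FPKM. The most abundant plexins overlapped between control and alcohol, with PLXNB2 at 24.1 and 25.7 FPKM in control, 23.0 and 26.6 under alcohol, and 24.8 and 18.5 in co-treated libraries, and PLXNA1 at 20.3 and 19.7, 21.8 and 18.8, and 19.4 and 14.1 FPKM in the same order. PLXNA4 lay between 7.62 and 9.08 FPKM and PLXNB3 between 0.40 and 1.14 FPKM.

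PLXNC1, the receptor of SEMA7A, differed in direction from the plexin A and B genes. Its FPKM was 1.04 and 1.2 in control, 2.02 and 2.72 under alcohol, and 2.03 and 3.05 in co-treated libraries, with every exposed library above both controls. The log2 fold change in exposed against control was 0.83 (SE 0.25, adjusted p = 0.147), at a level where few reads carry the estimate. It overlaps CEP83, which lay between 5.62 and 6.26 FPKM. PLXND1, a receptor of SEMA3E in vessels, had 10.9 and 8.98 FPKM in control, 12.02 and 10.9 under alcohol, and 12.2 and 8.63 in co-treated libraries. Its log2 fold change in exposed against control was also positive but small (0.09, SE 0.15). The ratio of SEMA4D to PLXNB1 was 1.07 and 1.14 in control, 1.59 and 2.70 under alcohol, and 2.25 and 2.77 in co-treated libraries.

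**Figure D4:**
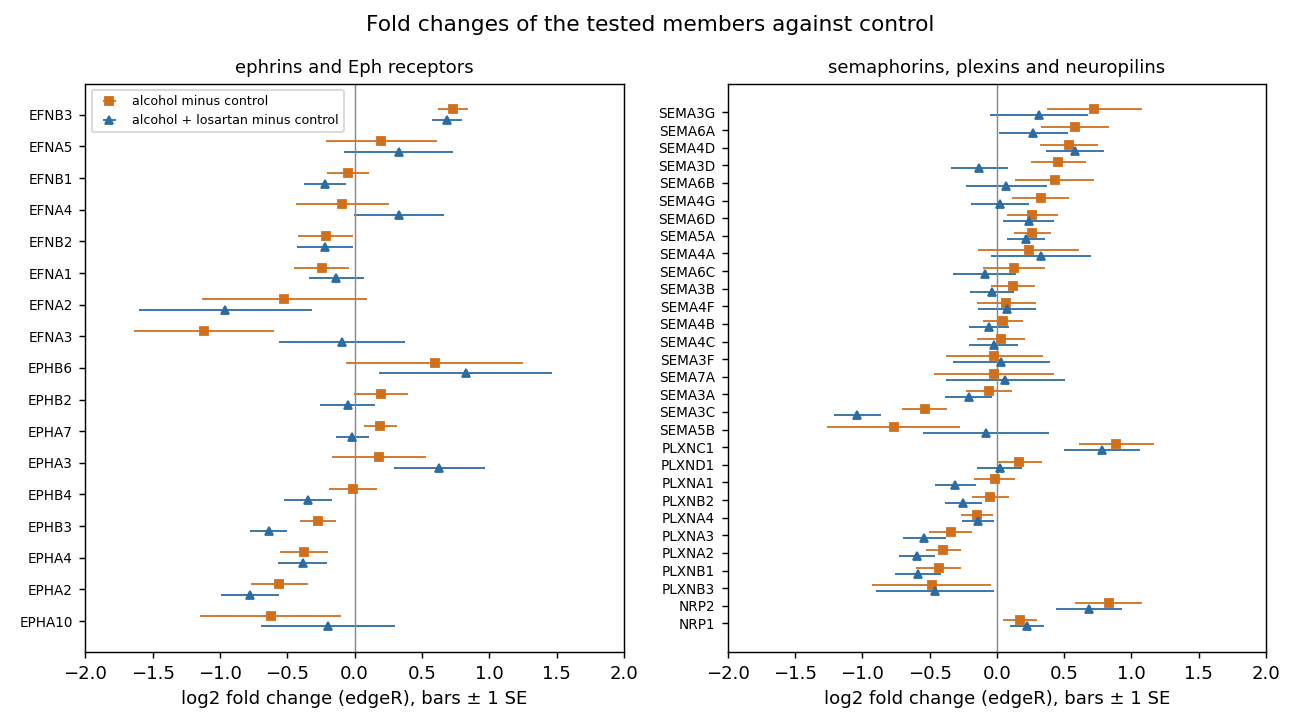
Log2 fold changes against control of the 47 tested genes from the edgeR fit, with bars of 1 SE, squares for alcohol and triangles for alcohol with losartan; both use the same 2 control libraries. EFNB3 is at 0.73 and 0.69, SEMA3C at −0.54 and −1.04, and all 7 plexin A and B genes lie left of 0. In alcohol PLXNA1 and PLXNB2 lie close to that line, at −0.02 and −0.05.

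Counted over the group, the calls were few. In alcohol against control 1 of 47 genes was called at an adjusted p under 0.05 (EFNB3), where 0.067% of all 14926 genes tested were called, and DESeq2 called the same gene with 0.741% of all genes called. At an unadjusted p under 0.05, 6 genes were higher (EFNB3, NRP2, PLXNC1, SEMA3D, SEMA4D and SEMA6A, 12.8% against 5.27% of all genes) and 4 were lower (EPHA2, PLXNA2, PLXNB1 and SEMA3C, 8.51% against 5.78%). Without alcohol replicate 1 the adjusted calls were EFNB3, EPHA2, NRP2, SEMA3C and SEMA4D, 5 in all, and without alcohol replicate 2, either control library or either co-treated library there were 0. The median log2 fold change of the 47 was 0.03.

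In co-treated against control 2 of 47 genes were called (EFNB3 higher and SEMA3C lower), with 0.362% of all genes called. DESeq2 called 3, EPHB3 being the third, with 0.975% of all genes called. At an unadjusted p under 0.05, 4 were higher (EFNB3, NRP2, PLXNC1 and SEMA4D) against 6.26% of all genes, and 6 were lower (EPHA2, EPHB3, PLXNA2, PLXNA3, PLXNB1 and SEMA3C, 12.8%) against 6.37%. The count was 0 without control replicate 1, co-treated replicate 1 or co-treated replicate 2, 1 without control replicate 2, and 5 without alcohol replicate 1, while it stayed within 1.5 times without alcohol replicate 2.

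For exposed against control, which pools both exposures and shares the control libraries with the comparisons above, 2 of 47 were called (EFNB3 and SEMA3C) with 0.556% of all genes called, and DESeq2 called the same 2 with 1.41% of all genes called. At an unadjusted p under 0.05, 4 were higher against 6.48% of all genes and 7 were lower (14.9%) against 7.05%, the seventh being EPHA4. By FPKM, all 4 exposed libraries lay above both controls for 5 genes (10.6%: EFNB3, NRP2, PLXNC1, SEMA4D and SEMA4G), against 14.8% of all genes tested, and below both for 6 (12.8%: EPHA2, EPHB3, PLXNA2, PLXNA3, PLXNB1 and SEMA3C), against 8.39%. The count of adjusted calls was 0 without either control library or either co-treated library, 1 without alcohol replicate 2 and 6 without alcohol replicate 1. An exact two-sided permutation test of a single value cannot go below p = 0.333 for 2 libraries against 2, or 0.133 for 4 against 2.

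The comparison of co-treated with alcohol asks what losartan added beside alcohol, and no gene of the group passed it. Here edgeR called 0 of 47 genes with 0.0134% of all genes called, and DESeq2 called 0 with 0.0335% of all genes called. At an unadjusted p under 0.05, 0 were higher (2.84% of all genes) and 3 were lower (EPHB3, SEMA3C and SEMA3D, 6.38% against 2.71% of all genes). The median log2 difference over the 47 was −0.11, with 31 genes lower and 16 higher (34%), against a median of 0.00 and 50.3% higher over all genes tested. Leaving out co-treated replicate 1 gave −0.23 for that median, and leaving out the other co-treated library gave −0.012. The median log2 difference of the 47 genes from control had an SD of 0.111 between replicate libraries. The genes are not replicates of a condition, and no test was run on their median. The largest positive estimates were those of EFNA3 (1.02, SE 0.52, adjusted p = 0.900) and SEMA5B (0.68, SE 0.50, adjusted p = 0.923), both of which had their lowest value in alcohol replicate 2.

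Partners and effectors of the 2 systems were read from lists of their own, and none of their genes was called in any comparison. Of 31 tested partners of semaphorins and plexins, 1 was higher and 8 were lower at an unadjusted p under 0.05 in exposed against control, with a median log2 fold change of −0.20. Over all genes tested, 6.48% were higher and 7.05% lower at that p. The 1 was KDR, the VEGF receptor that pairs with neuropilins, with 4.00 and 3.70 FPKM in control, 5.18 and 6.53 under alcohol, and 6.67 and 7.70 in co-treated libraries. In co-treated against control its log2 fold change was 0.86 (SE 0.17), and the adjusted p of 0.0502 was just above the threshold. Those lower included CFL1, the actin-severing protein cofilin, with 321 and 357 FPKM in control and 231 to 295 FPKM in exposed libraries, and MICAL1 and MICAL2, oxidases that disassemble actin (exposed log2 fold changes −0.60 and −0.43, adjusted p = 0.213 and 0.178). DPYSL2, a mediator of SEMA3A signals, was also lower (−0.47, SE 0.16, adjusted p = 0.194). Of 32 tested ephrin and Eph partners, 2 were higher and 4 lower (6.48% and 7.05% of all genes), with CHN2 at 0.57 (SE 0.19, adjusted p = 0.185) and ITSN1 at −0.30 (SE 0.10, adjusted p = 0.181).

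In the Slit and Robo system, another set of guidance cues, 2 of 8 tested genes were higher and 2 lower at an unadjusted p under 0.05 in exposed against control, where 6.48% of all genes were higher and 7.05% lower. SLIT3, a secreted ligand, had 14.3 and 15.2 FPKM in control and 10.2 to 11.7 in exposed libraries (log2 fold change −0.47, SE 0.10, adjusted p = 0.05003, just above the threshold). ROBO2, a Slit receptor, had 2.56 and 2.46 FPKM in control and 3.16 to 4.23 in exposed libraries (log2 fold change 0.51, SE 0.16, adjusted p = 0.158). Of 8 tested netrin and RGM genes 1 was lower (7.05% of all genes), which was NTN1 (−0.53, SE 0.20, adjusted p = 0.274). Of 6 tested VEGF ligands and receptors 1 was higher (6.48% of all genes), which was KDR again.

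Summed levels of markers of some other cells also differed between control and exposed libraries, while those of cycling cells overlapped. In bulk RNA fewer cells of a type and less RNA per cell cannot be told apart. Smooth muscle markers (6 of 6 found) summed to 1965 and 1724 FPKM in control and 751 to 1491 FPKM in exposed libraries. ACTA2 was called lower in exposed against control (log2 fold change −1.14, SE 0.16, adjusted p = 0.0127). It had 507 and 580 FPKM in control and 203 to 337 in exposed libraries. TAGLN and MYH11 were also lower in every exposed library, while CNN1, LMOD1 and SMTN overlapped between control and exposed. CNN1 had 417 and 279 FPKM in control and 177 to 422 in exposed libraries. Neural markers (9 of 10 found) summed to 13.7 and 15.7 FPKM in control and 16.2 to 17.5 FPKM in exposed libraries, with ELAVL3, ELAVL4 and DCX at most 0.32 FPKM. SNAP25, a protein of vesicle fusion, had 3.45 and 3.46 FPKM in control and 4.70 to 6.42 in exposed libraries (exposed against control log2 fold change 0.63, SE 0.23, adjusted p = 0.260). Without SNAP25 the neural sums were 10.3 and 12.2 FPKM in control and 10.7 to 12.8 in exposed libraries, which overlapped. Endothelial markers (10 of 10 found) summed to 8.48 and 7.14 FPKM in control and 8.93 to 11.9 FPKM in exposed libraries. Without KDR, which was 47.2 to 66.4% of it, that sum was 4.48 and 3.44 FPKM in control and 3.30 to 4.20 in exposed libraries, which overlapped. PECAM1, CDH5 and VWF were at most 0.78 FPKM. Fibroblast and epicardial markers (11 of 12 found) summed to 476 and 429 FPKM in control and 483 to 531 FPKM in exposed libraries. COL1A2, TBX18 and UPK3B (at most 0.92 FPKM) were higher in every exposed library, and the other markers found overlapped. Among these, POSTN had 35.1 and 37.7 FPKM in control and 27.8 to 36.5 in exposed libraries. Of 8 tested markers of this list, 2 were higher and 1 lower at an unadjusted edgeR p under 0.05 in exposed against control. Over all genes tested the shares were 6.48% and 7.05%. COL1A2 had 96.55 and 89.5 FPKM in control and 109 to 140 in exposed libraries. Endoderm-like markers (7 of 7 found) summed to 38.5 and 36.7 FPKM in control and 46.7 to 49.6 FPKM in exposed libraries. Cycling cell markers (6 of 6 found) summed to 119 and 208 FPKM in control, 85.8 and 109 under alcohol, and 168 and 140 in co-treated libraries. Alcohol replicate 2, which held the highest NRP2 and the lowest EPHA2, also had the lowest cardiomyocyte and smooth muscle sums (18168 and 751 FPKM). The low cardiomyocyte sum was not shared by all its markers. MYL7 had 9321 FPKM in that library and 10240 to 16180 elsewhere, and MYL2, TNNI3, ACTN2 and TTN were also lowest there. MYH6, TNNI1, NKX2-5 and TBX5 were highest there. The part of these cell markers in the values of EFNB3, SEMA3C, NRP2 and the plexins was not tested.

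Positions and ontology terms of the 53 genes are given as description, and such terms are not independent of a choice by family name. The 53 genes were spread over 16 chromosomes, with 11 on chromosome 3, 10 on chromosome 1 and 8 on chromosome 7. EFNA4, EFNA3 and EFNA1 lie side by side on chromosome 1 between 155063740 and 155134899. In the ontology terms of the deposited table, chemotaxis was attached to 23 of the 53 genes and to 306 of all genes, and axon guidance to 8 of the 53 and to 39 of all genes. EFNB3 lies on chromosome 17 (7705202 to 7711372), SEMA3C on chromosome 7 (80742538 to 80922389) and NRP2 on chromosome 2 (205682501 to 205798131), all on GRCh38.p14, and none of the 3 overlaps another gene of the table.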

How the data were processed

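RNA of 6 libraries (2 each of control, alcohol and co-treated hiPSC-CMs) was sequenced, and libraries were grouped by the treatment in their labels. For each library the authors deposited expected counts per gene, estimates of reads of which 33.9% of those above 0 are not whole (more than 0.005 from a whole number), and FPKM, the same estimates scaled by the authors to gene length and depth. The deposited series table repeats these FPKM with symbols and ontology terms. The submitters' processing notes name HISAT2 2.0.4, Bowtie2 2.2.5, RSEM 1.2.12 and hg38. RSEM-type estimates share reads among similar genes, and strandedness is not given in the sources used here.

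Expected counts were rounded and tested with edgeR 4.0.16 (quasi-likelihood F test, two-sided, TMM, filterByExpr, all 6 libraries in 1 fit, Benjamini-Hochberg over 14926 genes, threshold 0.05) in R 4.3.3. Alternatives were DESeq2 1.42.0, limma 3.58.1 on log2(FPKM + 1) and log2(FPKM + 0.1), RLE size factors, no filter, at least 10 counts in every library, a replicate block, only the groups compared, and each library left out in turn. The edgeR, DESeq2 and limma steps were also run on simulated data with planted changes. Those changes were larger than most reported here, so that run does not show how well smaller ones are found. Replicates differed by more than counting noise (chi-square per gene of 4.46 to 7.30), so none was a copy. Totals of 4898287 to 5051448 make 3 counts 0.594 to 0.612 CPM, and intervals cover no error beyond that modelled.

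Genes are named with values by this rule: the leading genes EFNB3, SEMA3C and NRP2; the 5 largest rises and falls of each comparison; any gene at a p under 0.05, adjusted or not; and the most abundant gene of each subfamily. Other genes with values were added to complete their family. The genes and lists were chosen with earlier results of these data known. Positions and promoters are from RefSeq on GRCh38.p14, the assembly also called hg38, and overlapping genes are those that the deposited table lists.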

Additional observations from a re-analysis of the deposited data

How the results depend on the processing

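Recomputed under every alternative, 80 counts and medians stayed close to the value reported and 30 moved. The number of genes called in alcohol against control was 0 with no filter, 0 with only the groups compared and 0 with limma at either pseudocount, and 0 to 5 with 1 library left out. In co-treated against control it was 0 with no filter and 0 with limma at either pseudocount, and 0 to 5 with 1 library left out. In exposed against control it was 1 with no filter, 0 with limma at either pseudocount, and 0 to 6 with 1 library left out. Deviations of libraries with the same replicate number from their group means were weakly correlated over all genes tested (0.114, 0.0412 and −0.0162). That does not exclude an effect shared by replicate number. With the replicate number as a block, calls over all genes rose from 10 to 48 in alcohol against control. They rose from 54 to 136 in co-treated and from 83 to 256 in exposed against control. With this replicate block the exposed count was 5 (EFNB3, EPHA2, NRP2, PLXNA2 and SEMA3C). With the block EPHB3 was also called in co-treated against control (adjusted p = 0.0423), and no other call among the guidance genes changed. The cause of these changes was not tested. The median of co-treated against alcohol ranged from −0.23 (without co-treated replicate 1) to −0.012, and that of co-treated against control from −0.16 to 0.074 (without co-treated replicate 2), with 1 library left out.

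For single genes, 643 recomputed values kept direction and side of the threshold, 36 lost the threshold, 18 gained it and 4 reversed. The 4 were uncalled estimates of co-treated against alcohol with 1 library left out: EPHA10 (−0.041 to 1.11), SEMA5B (−0.037 to 2.13), SEMA3G (−0.84 to 0.17) and EFNA2 (−1.63 to 0.21). The limits are 2 libraries a group, at most 5051448 counts each, and the unlike alcohol libraries, of which replicate 2 stands above all others for NRP2 and replicate 1 lies nearest to control for EPHA2 and SEMA4D.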
